A study of Mus musculus with 2 samples.

Results

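The sequences described here are the tags of 18 to 31 nt in the small RNA library of DMSO-treated J1 mouse embryonic stem cells that matched only protein-coding transcripts. A tag is a distinct sequence with its read count. A tag was taken if it matched a GENCODE transcript of type protein_coding exactly and in the sense direction, and matched no rRNA, miRNA, snoRNA, snRNA or other small RNA transcript and neither of the ribosomal DNA transcripts Gm42418 and Gm26917. The rule kept 204908 tags of the 905950 in that length range, and 910008 tags stood in the whole DMSO list. They made up 22.6% of the tags (95% exact binomial interval 22.5 to 22.7%) but carried 531092 of 18862866 reads, or 2.82% (2.81 to 2.82%). The intervals throughout cover counting error only, since reads amplified by PCR without molecular identifiers are not independent molecules.

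J1 is an established embryonic stem cell line of the 129S4/SvJae strain, here adapted to gelatin. The cells were held in medium with LIF at 1000 U/mL, which both conditions shared, and were given 1 µM SC1 or an equal volume of DMSO for 6 h before total RNA was extracted. There was 1 library per condition, so no value below has a replicate check and no test was made. The SC1 list held tags too short for the rule, so the levels are those of the DMSO library alone.

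A library of small RNAs is built from RNA short enough to be ligated and size-selected, and in animal cells it is usually read for miRNAs. Messenger RNA also leaves short pieces when it is degraded, and such pieces fall along the whole message. Genes for tRNA, 5S rRNA and small nucleolar RNA are a different source: their RNAs are cut or processed at fixed places, and copies of them lie in introns and untranslated regions of protein-coding genes. The annotation used for the rule holds no cytosolic tRNA genes.

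The tags with which the leading genes began are shown first, because they differ in what else is known of their letters. All are written 5′ to 3′ as sequenced. Coordinates are GRCm38, from matching to GENCODE M21 transcripts. The first 3 are the Lars2 tags with most reads, from the 3′ untranslated region (UTR) of the mitochondrial leucyl-tRNA synthetase gene on chromosome 9, plus strand. Capitals mark the bases that 2 of them share, and the remaining one lies downstream of both.
Lars2, chr9:123462078-123462097, 18070 reads: CTAATAGGGAACGTGAGCTG
Lars2, chr9:123462169-123462186, 13271 reads: agtacgagaggaaccgca
Lars2, chr9:123462075-123462097, 9022 reads: ccaCTAATAGGGAACGTGAGCTG

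The next set holds letters of the A box, the inner promoter element that RNA polymerase III uses at tRNA genes, given in capitals. The first tag matched the 3′ UTRs of Dennd5b and Ano3 alike, and its coordinates are those in Dennd5b on the minus strand. In Ano3, also on the minus strand, it lay at chr2:110656210-110656229. The Mettl26 and Ndufs7 tags lay in 5′ UTRs and the Cpsf2 tag in a 3′ UTR, all on the plus strand.
Dennd5b and Ano3, chr6:148990480-148990499, 20862 reads: ggggatgTAGCTCAGTGGta
Mettl26, chr17:25875088-25875115, 613 reads: gcgccgcTGGTGTAGTGGtatcatgcaa
Cpsf2, chr12:102003380-102003398, 79 reads: ggggtgTAGCTCAGTGGta
Ndufs7, chr10:80249159-80249178, 34 reads: gtctctgTGGCGCAATCGgt

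The leading tag of Tmem38b lay in its 3′ UTR, on the plus strand of chromosome 4, at the end of an annotated 5S rRNA gene. The capital marks the 1 base beyond that gene.
Tmem38b, chr4:53860749-53860771, 1948 reads: ggaataccgggtgctgtaggctT

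A further set held TGATG followed by CTGA, in capitals. TGATG and CTGA are letters of the C and D boxes that define box C/D small nucleolar RNAs. Sec24c was matched in its coding sequence on the plus strand, and Arfgef3 and Inava in their 3′ UTRs on the minus strand.
Sec24c, chr14:20689367-20689390, 337 reads: cacagaTGATGgttgtatCTGATG
Arfgef3, chr10:18585912-18585935, 414 reads: gggataTGATGccttcttCTGAtc
Inava, chr1:136214196-136214217, 100 reads: ggccgaTGATGcagagCTGAga

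The leading tags of Pabpc1, Tmem245, Ncbp3 and Taok1 held neither the A box nor TGATG followed by CTGA. Capitals mark the bases present in every tag of the gene with 100 or more reads that overlapped the leading tag. In Taok1 the leading tag held 1979 of the 1980 overlapping reads, so its capitals mark that tag alone. The Taok1 tag was in the 5′ UTR and the others in 3′ UTRs, and Ncbp3 alone of these lies on the plus strand.
Pabpc1, chr15:36595749-36595768, 3120 reads: aATAGCTTGGGACATCAGCt
Tmem245, chr4:56870775-56870795, 2580 reads: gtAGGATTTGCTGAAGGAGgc
Taok1, chr11:77607460-77607477, 1979 reads: CGGCGGCGGCGGCGACTC
Ncbp3, chr11:73083076-73083094, 518 reads: AAAATATAAGAGTTCGGTT

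Asxl2 and Snx30 stand for genes whose leading tag held GGTGGCGCA, in capitals, a run found in B1 elements, the short interspersed repeats that rodents carry in many 3′ UTRs. Both tags were on the plus strand, and that of Snx30 matched 3 genes.
Asxl2, chr12:3504603-3504624, 145 reads: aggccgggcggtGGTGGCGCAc
Snx30, chr4:59901614-59901634, 57 reads: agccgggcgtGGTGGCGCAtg

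Eef1a1 and Rps3 are shown for contrast, as genes whose reads were spread over many tags. The Eef1a1 capitals are the bases that its leading 2 tags share, in coding sequence on the minus strand. The Rps3 tag crossed a splice junction in coding sequence, with the bases after the junction in capitals, and its coordinates on the minus strand span the intron it lacks.
Eef1a1, chr9:78479075-78479096, 131 reads: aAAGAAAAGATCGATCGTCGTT
Eef1a1, chr9:78479075-78479095, 68 reads: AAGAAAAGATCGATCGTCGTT
Rps3, chr7:99482692-99483603, 51 reads: aagaagaggaagTTTGTAGCT

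Background matching was measured in 2 ways. When each tag was read backwards, 873 tags with 4824 reads passed the same rule, 0.0256% of reads. Matching to the opposite strand, among tags with no sense match, gave 7504 tags with 20288 reads, 0.108% of reads. The reads in sense lay above both backgrounds. The 10 leading reversed tags held 69.4% of the reversed reads, so even that background was made of a few abundant tags.

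Of 21901 genes with a protein_coding transcript, 14577 had at least 1 of the tags and 5737 had 10 or more reads, which is 26.2% of the genes. A tag that matched several genes was divided equally among them, so some gene totals are not whole. Tags that matched 1 gene held 90.4% of the reads. The reads were far from even over genes. The 10 genes with most reads held 52.2% (52.1 to 52.4%) and the 20 genes with most reads 54.3%. A single gene, Lars2, made most of this: with it left out, the 10 leading genes held 18.8% of the remaining 310873 reads.

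The genes fell into 4 groups by how their reads were arranged. Lars2 held 41.5% of the reads. Another 94 genes had 10 or more reads and at least 50% of them at a single 5′ end, and held 10.9% (10.8 to 11%). In 5642 genes with 10 or more reads no 5′ end reached 50%, and these spread genes held 42.1% (41.95 to 42.22%). The remaining 8840 genes had under 10 reads each and held 5.53%.

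**Figure D1:**
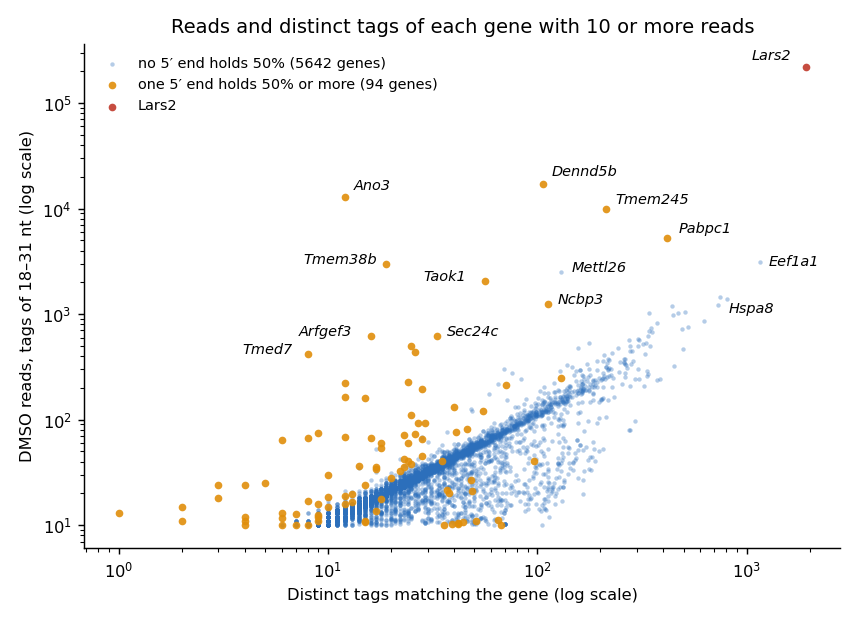
Reads (vertical, log scale) against distinct tags (horizontal, log scale) for the 5737 genes with 10 or more reads in the DMSO library, each point 1 gene. Most spread genes lie along a line of about 1 read per tag, and Lars2, Dennd5b, Ano3, Tmem245, Tmem38b and Taok1 stand above it with many reads per tag.

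Lars2 had 220219 reads in 1921 tags. The protein it encodes charges mitochondrial leucine tRNA, and its 3′ UTR is known to hold a stretch that resembles 28S ribosomal RNA. All but 6 of the reads lay in 388 bases of the 3′ UTR, bases 3030 to 3417 of a transcript of 3894 bases whose coding sequence runs from base 200 to base 2908. This stretch, chr9:123461800-123462187, was 9.96% of the transcript. Only 5 reads fell in the coding sequence, so the message outside the stretch was next to unread.

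Within the Lars2 stretch the reads were uneven. The 5′ end at base 3308 held 32079 reads (14.6% of the gene), that at base 3305 held 19332 (8.78%), and that at base 3399 held 13581 (6.17%). The end points were uneven too, with 15.3% of reads ending at base 3327 and 10.9% at base 3416. No window of 18 bases in the stretch was shared with Gm42418 or Gm26917, which is why the rule kept these tags. Tags that also matched a gene of another type held 63.2% of the Lars2 reads, the leading tag through Gm15564, an antisense transcript. How much of the signal came from ribosomal RNA was not tested, as no 28S sequence was used here.

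Dennd5b, which encodes an activator of Rab GTPases, had 17279 reads in 106 tags, and 99.1% of them began at 1 base. Ano3, an anoctamin gene, had 12775 reads in 12 tags, 99.2% of them at 1 base. Both totals come from the same sequence: tags shared with other genes held 74.0% of the Dennd5b reads and 99.9% of the Ano3 reads. Elsewhere Dennd5b had 31.6 reads and Ano3 had 1. The shared 20-nt tag with 20862 reads was the most abundant of all the tags. It also matched a retained intron of Rnf214 and the unclassified transcript Gm37608. Alanine tRNAs are known to begin with letters of this kind.

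Tmem245, a transmembrane protein gene that hosts Mir32, had 9870 reads in 213 tags. Its leading tag held 26.1% and its leading 5′ end 83.7% of them, and 133 reads lay outside the place of the leading tag. That place was 24434 nt from Mir32, in the 3′ UTR, and the same letters occurred in a retained intron of Tgfb1 and in the sense-intronic transcript Gm48617.

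Pabpc1, which encodes the cytoplasmic poly(A)-binding protein, had 5218 reads in 418 tags. Its leading tag began at base 2710 of 2817 and ended 88 nt before the end of the transcript, and tags overlapping it held 4246 reads (81.4%). The other 972 reads lay along the rest of the message, and coding sequence held 13.7% of all its reads. No other transcript of any type held the leading tag. Pabpc1 thus combined a single tall place with a low spread of tags.

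Tmem38b encodes a cation channel of the endoplasmic reticulum and had 2954.5 reads in 19 tags. Of these, 2951 in 15 tags overlapped the annotated 5S rRNA gene n-R5s185, chr4:53860652-53860770, which lies in its 3′ UTR. These tags escaped the exclusion of rRNA because each runs past an annotated end of that gene. The rest of the message had 3.5 reads.

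Mettl26, a methyltransferase-like gene, had 2493 reads in 130 tags, 99.7% in the 5′ UTR. Tags with 2485 reads overlapped the glycine tRNA gene n-TGccc7, chr17:25875088-25875158, and the leading tag began at its first base. Unlike in Dennd5b, Ano3, Tmem245, Pabpc1 and Tmem38b, no single 5′ end held 50% of the reads: the leading one held 34.8%. So by the arrangement of its reads Mettl26 counts among the spread genes.

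Taok1, a protein kinase gene, had 2039 reads in 56 tags. One tag of 18 nt held 97.1% of them, and 59 reads lay elsewhere. Ncbp3, which encodes a cap-binding protein, had 1251 reads in 113 tags, 70.0% at 1 base of the 3′ UTR and 25.9 reads elsewhere. Olfr1388, an olfactory receptor gene, had 1026 reads in 341 tags, all in the 3′ UTR, with 21.6% at the leading 5′ end. Its leading tag also matched the unclassified transcript Gm43041.

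The other 10 genes among the 20 with most reads encode translation factors, chaperones, ribosomal and nucleolar proteins, and none had a dominant tag. Eef1a1, the elongation factor that brings aminoacyl-tRNA to the ribosome, had 3087 reads in 1152 tags, with 4.24% in the leading tag. Hspa8, the constitutive Hsp70 chaperone, had 1454 reads in 746 tags, and Eef2, the translocation factor, 1405 reads in 806 tags. The chaperone gene Hsp90ab1 had 1230 reads. Rps3 had 1191, Rps2 1050, Rpl8 978 and Rps6 821.5 reads, all encoding ribosomal proteins. The nucleolar protein genes Npm1 and Ncl had 1025 and 868.9 reads. Among these 10 genes the leading tag held from 1.30% (Hsp90ab1) to 13.4% (Rps6) of the reads.

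The same contrast shows along the transcripts. On Eef1a1, 83.2% of the bases of the transcript were covered, with at most 465 reads over a base and a median of 8. On Hspa8, 67.0% were covered, with at most 211 and a median of 3. On Pabpc1, 49.4% were covered, with at most 4245 and a median of 0, and on Lars2 12.4%, with at most 68920. Coverage of Eef1a1 and Hspa8 was wide but uneven, in separate peaks.

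**Figure D2:**
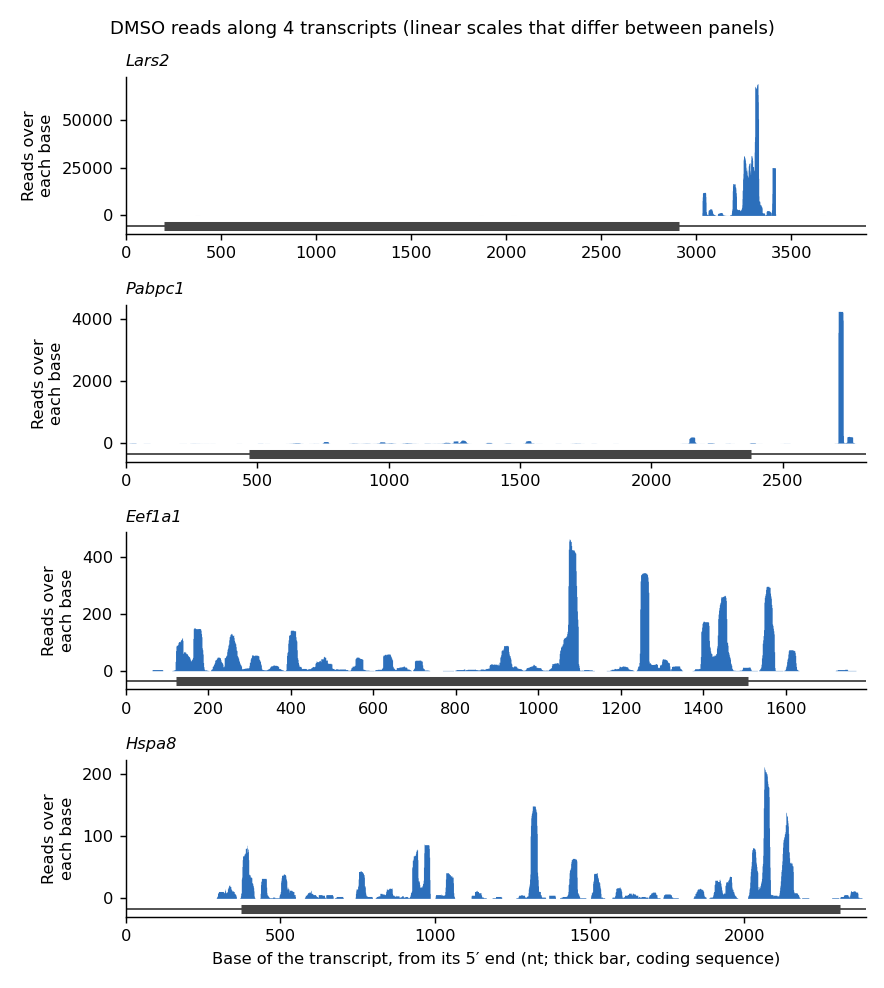
Reads over each base (vertical, linear, a scale for each panel) along the transcripts of Lars2, Pabpc1, Eef1a1 and Hspa8 (horizontal, base from the 5′ end in nt), with a thick bar for the coding sequence. Lars2 and Pabpc1 have their reads at places in the 3′ UTR (highest 68920 and 4245), while Eef1a1 and Hspa8 have many lower peaks over the coding sequence (highest 465 and 211).

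How few tags made up a gene was measured for the 5737 genes with 10 or more reads. In 40 of them, 0.697%, 1 tag held at least 50% of the reads, and these genes held 8.21% (8.13 to 8.28%) of all reads. That share was 3.67% without tags matching more than 1 gene and 4.44% without tags that also matched another gene type. Grouping tags by their 5′ end raised this to the 94 genes above, 1.64% of the genes tested. Their median gene had 18 tags and 33.2 reads, with 70.4% of reads at 1 end. The median spread gene had 23 tags and 21 reads, with 10.7% at its leading end. A gene of 10 reads reaches the 50% line with 5 of them, so the smallest genes in this count rest on few reads. Some of them also rest on shared tags: Dlx6, Hrc and Tal2 have the same leading tag of 161 reads, which matched 40 genes.

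Single tags showed the same extremes. Of the 204908 tags, 86.0% were seen once, and these held 33.2% of the reads. At the other end, 297 tags with 100 or more reads held 48.3%. Of the 10 tags with most reads, 8 were from Lars2 and 2 from Dennd5b, 1 of them shared with Ano3.

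Leading tags of the 94 dominant-end genes lay in 3′ UTRs in 61 genes, 5′ UTRs in 17 and coding sequence in 16. A leading tag need not lie at the dominant end. In Snapin it held 12.5% of the reads, in the 3′ UTR, while 81.3% of the reads were in the 5′ UTR. The leading tag lay in the first 30 nt of the transcript in 6 genes and in the last 30 nt in 2. In 37 genes it matched more than 1 gene, and in 14 it was of the shortest length kept, 18 nt. Beyond those named above, the largest were Sec24c with 626 reads, Arfgef3 with 616, Fn3krp with 502 and Cstf2t with 434. Sec24c encodes a coat protein of export vesicles, and all but 23 of its reads overlapped its leading tag. Arfgef3, an exchange-factor gene, had 4 reads elsewhere.

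By position, 62.2% of the reads were in 3′ UTRs (62.1 to 62.3%), 32.6% in coding sequence (32.5 to 32.7%) and 5.20% in 5′ UTRs (5.14 to 5.26%). Lars2 alone turned that order: without it the shares were 35.4% for 3′ UTRs, 55.7% for coding sequence and 8.88% for 5′ UTRs. A tag was placed by its midpoint on the matched transcript with the longest coding sequence.

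Counted by reads, spread genes and dominant-end genes differed in position. Spread genes had 69.3% of their reads in coding sequence, although coding sequence made up 57.0% of the bases of their transcripts when weighted by reads. Their 3′ UTRs had 21.8% of reads for 34.0% of bases, and their 5′ UTRs 8.88% for 9.03%. The 94 dominant-end genes had 90.7% of their reads in 3′ UTRs, for 55.1% of bases, and without Dennd5b and Ano3 80.7%, for 58.8%. A few genes weigh heavily here too. Of the 27919 reads then left, Tmem245 held 9870, Pabpc1 5218 and Tmem38b 2954.5, each with its leading tag in the 3′ UTR. By gene, the leading tag lay in the 3′ UTR in 61 of the 94. Genes under 10 reads had 15.7% of reads in 5′ UTRs, for 8.87% of bases.

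**Figure D3:**
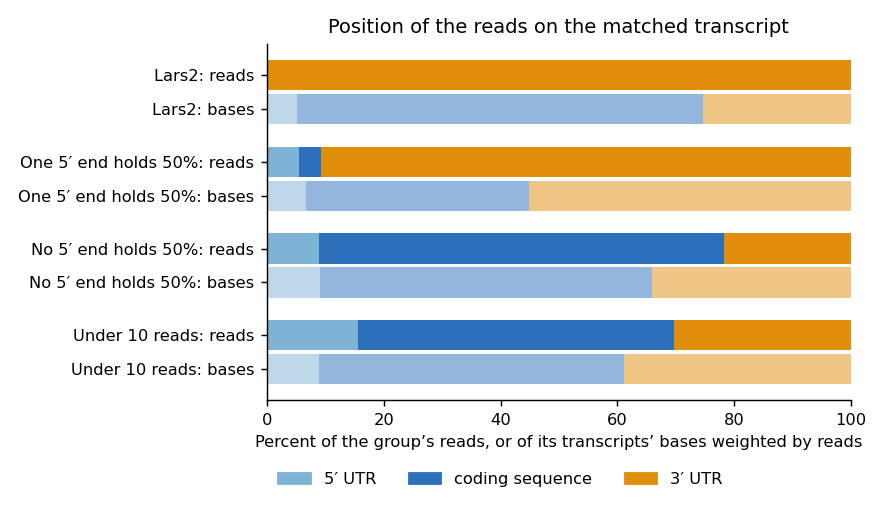
Share of reads (full colour) in 5′ UTR, coding sequence and 3′ UTR for Lars2, the 94 dominant-end genes, the 5642 spread genes and the 8840 genes under 10 reads, each above the share of the transcripts' bases weighted by reads (pale). Coding sequence holds 69.3% of reads for 57.0% of bases in spread genes, and 3′ UTRs hold 90.7% of reads for 55.1% of bases in dominant-end genes.

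Within the coding sequence of spread genes the reads were nearly level. Counted over 147340 reads in 5445 genes, 10 equal parts of the coding sequence held from 10.8% in the first part to 9.003% in the last, which were also the highest and the lowest. The first base of the tag fell on codon base 1 in 34.4% of reads, on base 2 in 35.2% and on base 3 in 30.5%. In tags of 27 to 31 nt the shares on codon bases 1, 2 and 3 were 34.9%, 34.7% and 30.4%. Codon base 3 was the least frequent in both.

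Transcript ends held few reads. Over all the tags 1.27% of reads touched the first 30 nt of the matched transcript and 0.222% the last 30 nt, when 1.10% of all places for such tags do so at either end. In spread genes the shares were 2.43% and 0.414%, for 1.54% of places. Tags starting exactly at the first annotated base held 0.100% of spread-gene reads, and tags ending at the last base 0.00943%. In spread genes and genes under 10 reads, reads thus lay above the share of places at 5′ ends and below it at 3′ ends. The latter genes had 4.02% and 0.625%, for 1.39% of places. Dominant-end genes lay below at both ends, with 0.244% and 0.123% for 0.535% of places, and Lars2 had 0 at either end. The leading Mettl26 tag, with 613 reads on a spread gene, began at base 15, and shares without it were not computed. Annotated ends vary between transcripts of a gene, which limits this count.

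Spliced messages were read across their junctions. Tags crossing a junction held 10.8% of the reads of spread genes, and 7.76% of the places for such tags cross one. In dominant-end genes the share was 0.914% for 4.96% of places, or 1.90% for 4.41% without Dennd5b and Ano3, and in Lars2 it was 0. Over all the tags the share was 5.01%.

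Introns kept by protein_coding transcripts gave little. Tags lying wholly in an intron that a protein_coding transcript of the same gene keeps within an exon held 1653 reads, 0.311% of the total. A wider count, of tags in any stretch that another protein_coding transcript of the gene splices out, came to 19186 reads, 3.61%. In spread genes the counts were 0.608% and 7.24%. Outside the rule, 6100 tags with 51848 reads had a match among retained_intron transcripts and none among protein_coding ones. These are more reads than the 1653 above. Their share, 0.275%, is of all DMSO reads of 18 to 31 nt, a larger total than that of the shares above.

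The most frequent length was 20 nt, with 22.1% of the reads, against 22 nt for all the DMSO tags of 18 to 31 nt and for the tags matching miRNA hairpins. Tags of 21 to 23 nt held 35.2% (35.0 to 35.3%), against 80.3% of the reads on miRNA hairpins and 39.8% of all reads. Dominant-end genes had 48.6% of their reads at 20 nt, the length of the leading Dennd5b tag, and 25.98% without Dennd5b and Ano3. Lars2 had 24.7% at 20 nt and 12.6% at 18 nt. Spread genes had a flat profile, 13.9% at 20 nt falling slowly to 5.05% at 27 nt, and genes under 10 reads nearly the same with 12.8% at 20 nt. Tags on snoRNAs and small Cajal body RNAs peaked at 27 nt, and the ribosomal DNA transcripts at 23 nt.

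**Figure D4:**
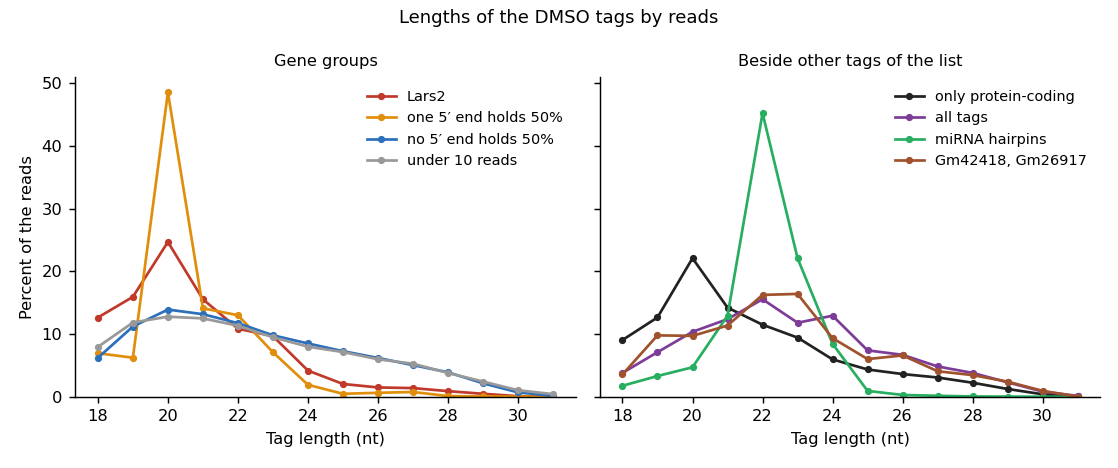
Percent of reads (vertical) at each tag length from 18 to 31 nt (horizontal), for the gene groups on the left, and on the right for all tags matching only protein-coding transcripts beside all DMSO tags, miRNA hairpin tags and Gm42418 or Gm26917 tags. Dominant-end genes reach 48.6% at 20 nt and spread genes 13.9%, whereas miRNA hairpin tags peak at 22 nt.

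The bases at the tag ends were uneven in spread genes. The first base was A in 35.0% of reads, against 28.8% A among the inner bases of the tags, and G in 19.6%, against 36.7%. Inner bases also differed from the message around the tags. The base before the tag was A in 25.9% and G in 29.7% of reads, and the base after it A in 26.9% and G in 24.8%. The last base was T in 27.5%, against 18.5% of inner bases, and G in 30.9%. Counted over distinct tags, the first base was A in 33.5%.

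Genes of the translation machinery were read regularly. Of 86 ribosomal protein genes, 83 had 10 or more reads, against 26.2% of all genes. Their median was 188 reads a gene against 2 over all 21901 genes. Per length the median was 248 reads per kb, against 0.674 over all genes. Together they held 23390 reads, 7.52% of reads without Lars2, 91.2% of them in coding sequence. None had a dominant end, which 1.64% of the genes with 10 or more reads had, so nothing is read from this. Junctions were crossed by 19.1% of these reads. Processed pseudogenes share letters with this family, and where they do the source of a read cannot be told apart.

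A further list held 13 genes whose messages begin with a 5′ terminal oligopyrimidine tract, a signal for growth-regulated translation. Most are translation factors, but the list also holds others such as Npm1. All 13 had 10 or more reads, against 26.2% of all genes, with a median of 347 reads per kb against 0.674. Eef1a1 had 1721 and Pabpc1 1852 reads per kb, the latter through its single place. Pabpc1 was the only one of the 13 with a dominant end.

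Other abundant messages were read likewise. Of 31 genes for cytoskeleton, glycolysis and chaperones, 30 had 10 or more reads, against 26.2% of all genes. Their median was 116 reads per kb against 0.674 over all genes. Hspa8 led with 607 reads per kb, Hsp90ab1 had 488, and Pkm, the pyruvate kinase gene, 757.5 reads or 311 reads per kb. Ncl, a nucleolar protein gene also on this list, had 106 reads per kb. That value was counted on a transcript of 8202 nt, set by the placing rule, and shorter transcripts of the gene were not used. No gene of this list had a dominant end, and nothing is read from this at a background of 1.64%.

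The replication-dependent histones, whose messages lack a poly(A) tail, gave 3130 reads. Of 67 genes, 62 had 10 or more reads, against 26.2% of all genes. Their median was 61.8 reads per kb against 0.674 over all genes. Hist1h1d had 158 reads, Hist4h4 158, Hist1h4d 138 and Hist1h1a 109. Copies of these genes are nearly identical, and 57.3% of their reads matched more than 1 gene, so single totals are uncertain. The first 30 nt of the matched transcripts were touched by 9.78% of the reads. The share of places was not computed for this list, so nothing is read from this.

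All 13 mitochondrial mRNAs had 10 or more reads, against 26.2% of all genes. They had 2013 reads in sum, led by mt-Co1 with 525, mt-Nd1 with 277, mt-Co3 with 223 and mt-Nd5 with 221. Their median was 121 reads per kb against 0.674 over all genes, and the reads were longer, with 23 nt the most frequent. All 17 reads of mt-Atp8 began at 1 base, and in mt-Nd1 44.4% did.

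Genes that define pluripotent cells were read, and fibroblast, endoderm and trophoblast markers had few reads. Of 26 pluripotency genes 23 had 10 or more reads, against 26.2% of all genes, with a median of 17.2 reads per kb against 0.674. Pou5f1, the core POU factor, had 234 reads, the stem cell RNA-binding gene Trim71 206, Tfcp2l1 141 and the co-receptor gene Tdgf1 119. None of the 26 was at 0, and Nanog had 63.1, Sox2 102 and Zfp42 54 reads. In the 8 fibroblast markers there were 3 reads in sum, with Col3a1, Dcn, Lum, Postn and Thy1 at 0, which allows up to 3 reads each. The 8 endoderm and trophoblast markers had 7.76 reads in sum, and the 6 neural markers 40.1. Of the 6 neural markers only Tubb3 passed 10, with 25.2 reads, a share of 16.7% against 26.2% of all genes. The neural markers had a median of 3.33 reads a gene, against 2 over all genes. Defining markers of the labelled cell type were thus present.

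Genes that host small RNA genes in their introns or exons passed 10 reads more often than the 26.2% of all genes. Tags lying inside the small RNAs are left out by the rule. Of 276 protein-coding hosts of snoRNA or small Cajal body RNA genes, 171 (62.0%) had 10 or more reads, and of 799 hosts of miRNA genes 349 (43.7%). The 4 snoRNA hosts with most reads were Tmem245, Hspa8, Eef2 and Rps3, and the 4 miRNA hosts Tmem245, Eef1a1, Ncl and Rpl3. Leading tags of Hspa8, Eef2 and Rps3 lay 214, 139 and 85 nt from Snord14c, Snord37 and Snord15a. The host lists include ribosomal protein genes such as Rps3 and Rpl3, and the part of expression level was not tested.

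Some tags overlapped annotated small RNA genes in part, or wholly where GENCODE has no transcript for them. On the same strand, 39 GENCODE miRNA genes were overlapped by 240 reads in all, with 74 at Gm26377 in Eef1a1 and 43 at Mir21a in Vmp1. The single overlapped 5S gene had the 2951 reads given for Tmem38b, and 4 snoRNA genes had 9. RefSeq lists 430 tRNA genes with coordinates but no strand. Only 3 of them were overlapped, n-TGccc7 in Mettl26 (2485 reads), n-TGtcc1 in Fcgr3 (220) and n-TNgtt7 in Ndufs7 (111). In Fcgr3 91.9% of the reads were in tags that cross a splice junction, so these overlapped the tRNA gene only in part. Tags overlapping annotated tRNA genes thus made up 0.530% of the reads, and those overlapping the 5S gene 0.556%. Neither Lars2 nor the Dennd5b and Ano3 tags were among them.

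The letters of some tRNA genes could be read, where they lie in GENCODE exons or in the RefSeq promoter windows of the same build. This gave 14 genes whole and 19 with at least 18 bases. Of these, 4 held letters of 139 tags with 2742 reads: n-TGccc7, n-TNgtt6, n-TNgtt7 and the alanine tRNA gene n-TAagc16. The last held tags with 214 reads from Cpsf2, Slc52a2 and Anks1b, genes on other chromosomes than this tRNA gene, the Cpsf2 tag shown above among them. It was the only alanine tRNA gene that could be read. Whether the Dennd5b tag is present in another of the 430 was not tested, because no genome sequence was used.

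Letters of small RNA genes were counted in the leading tags. Genes can share a leading tag, so the 94 dominant-end genes had 72 distinct leading tags and the 5642 spread genes 5461. The A box was searched by its usual consensus, and 9 of the 72 held it (12.5%), against 127 of 5461 in spread genes (2.33%). Distinct tags can still be end variants of the same sequence, and these were not merged. The leading tag of BC004004, with 351 reads, is the Dennd5b and Ano3 tag without its first base. By reads, A-box tags made up 52.2% of the reads on dominant-end genes and 2.72% on spread genes, and 7.61% of all DMSO reads of 18 to 31 nt. Tags of Dennd5b and Ano3 held 30401 of the 31189 A-box reads on dominant-end genes, and without their tags the share was 2.70%, near that of spread genes. The 6166 A-box reads on spread genes include the Mettl26 and Ndufs7 tags shown above, with 613 and 34 reads, which overlap annotated tRNA genes. Those are single tags. All Mettl26 tags inside n-TGccc7 held 2423 reads, and how many of these hold the A box was not counted. TGATG followed anywhere by CTGA stood in 7 of the 72 leading tags (9.72%) and in 27 of 5461 (0.494%). GGTGGCGCA stood in 6 of 72 (8.33%) and 11 of 5461 (0.201%). TGATG alone went both ways: it stood in 9 of 72 leading tags (12.5%) against 255 of 5461 (4.67%), but by reads in 3.32% on dominant-end genes against 4.67% on spread genes. GTTCNANNC, from the B box of tRNA genes, stood in 1 of 72 and 5 of 5461 leading tags, and by reads in 0.286% and 0.232%. In reverse complement the A box stood in 0.3499% of the reads on dominant-end genes, TGATG in 7.23% and GTTCNANNC in 0.782%, the last 2 above their forward shares. None of these differences was tested. TGATG, CTGA and GGTGGCGCA were not among the planned letters. The tags shown above for them are among the 72, so nothing is read from their contrast with spread genes. A match of letters describes the tag and does not show a site, and longer tags have more room for one.

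Few reads lay in miRNA hairpins that the GENCODE exclusion had not removed. There were 20 tags with 67 reads inside one of 1005 RefSeq hairpins.

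Short reads of the SC1 list began at some of the same places. Its tags of 15 to 17 nt held 1054495 reads, and those that are the start of the leading tag numbered 9895 for Tmem38b, 5862 for Taok1, 2816 for Lars2 and 754 for Ncbp3. For Dennd5b there were 13, for Tmem245 5 and for Pabpc1 0. Letters of 15 to 17 nt occur at many other places, so these reads need not come from the gene. Over the whole list 3.96% of the reads of 15 to 17 nt started a tag that matched only protein-coding transcripts, and in 0.285% every DMSO tag with that start did so. The lengths and the library differ, so the values cannot be set against DMSO levels.

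Of reads left out by the rule, 47293 in 2863 tags matched a protein-coding transcript and also a small RNA, rRNA, Gm42418 or Gm26917. Of the reads kept, 45.9% were in tags that also matched a gene of another type such as a pseudogene, a long noncoding RNA or an unclassified transcript. Without Lars2 the share was 33.6%. In Dennd5b, Ano3, Tmem245 and Olfr1388 the leading tags were of this kind, and in Pabpc1, Taok1, Ncbp3, Mettl26 and Tmem38b they were not.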

How the data were processed

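The authors deposited, per library, distinct sequences with their unnormalized counts of reads and the sequence length. How adapters were trimmed, which lengths were kept and which aligner was used is not given in the sources used here. All tags of the DMSO library were matched without mismatch to GENCODE M21 transcripts (GRCm38) with scripts in Python 3.11.15 using numpy 2.4.6, pandas 2.3.3 and numba 0.67.0. Intervals are exact Clopper-Pearson, from scipy 1.17.1. Matching was tested on simulated tags of known place. Coding sequence was taken from the annotation, with the stop codon. The DMSO list held 18870345 reads and the SC1 list 1275599. With 1 library per condition no test was made.

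The tags, genes and lists were chosen with earlier results of these data known. Named are the 20 genes and 10 tags with most reads and up to 4 genes of each list. Cpsf2, Ndufs7, Fcgr3, Asxl2, Snx30, Slc52a2, Anks1b, Vmp1, Nanog, Sox2, Zfp42, mt-Atp8, the markers named at 0, Gm26377 and the dominant-end genes outside the 20 were chosen after their values were seen. Of the letters searched, only those of the tRNA promoter were planned, and TGATG, CTGA and GGTGGCGCA were not. tRNA genes, promoter windows and hairpins are from RefSeq (GRCm38.p6). Alternatives changed the read and length minimum, the treatment of shared tags, the unit, the position rule and the end window.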

Additional observations from a re-analysis of the deposited data

How the results depend on the processing

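Of the alternative values, 27 stayed within the counting interval of the value given, or within 1.5 times it for a number of genes, and 64 did not. The share of reads (2.82%) became 1.95% with tags of 2 or more reads, 1.62% with 10 or more, 2.47% from 20 nt, 1.52% without tags on other gene types, 2.54% without tags on more than 1 gene, 2.80% without mitochondrial genes, 22.6% over distinct tags and 1.65% without Lars2. The genes with 10 or more reads numbered 1319 and 238 with the 2 read minimums. In the same order of settings, the share in the leading 10 genes was 77.7, 94.8, 50.4, 34.1, 52.7, 52.4, 3.87 and 18.8%. The share in genes with 1 dominant tag was 12.5, 15.9985, 9.43, 4.44 and 3.67% under the first 5, 10.9% with tags merged by 5′ end and 14.02% without Lars2. Such genes numbered 74 and 147 with the read minimums and 94 when merged by 5′ end. The 3′ UTR share was 81.2, 94.9, 61.1, 48.4, 61.4, 62.4, 24.3 and 35.4%. The coding share was 15.7, 3.17, 34.4, 42.5, 33.1, 32.3, 66.5 and 55.7%. The 5′ UTR share was 3.10, 1.96, 4.58, 9.11 and 5.49% under the first 5, 9.22% over distinct tags and 8.88% without Lars2. The share touching a transcript end was 0.986 and 0.569% with the read minimums, 2.48% without tags on other gene types, 2.55% without Lars2, 0.373% within 10 nt and 6.21% within 100 nt. The share at 21 to 23 nt was 36.2, 36.0, 44.9, 30.96 and 36.1% under the first 5, 33.6% over distinct tags and 34.5% without Lars2. The most frequent length stayed at 20 nt under every setting run. The order of coding sequence and 3′ UTR turned over distinct tags and without Lars2, an alternative chosen after seeing the data.

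Of the 20 genes with most reads, 12 kept that place over distinct tags and 12 without tags on other gene types. The planned restriction to tags with 1 genomic site was not run, since no genome sequence was used. No paired analysis was possible because no test was made and neither condition has a second library. Depth limits single genes: a median gene with 10 or more reads had 21 reads.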
